A study of Mus musculus with 18 samples.

Results

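The genes of the constitutive proteasome were followed in the retinal pigment epithelium (RPE) of young and old mice, a sheet of pigmented cells behind the retina that serves the photoreceptors. Members were the rows whose symbol starts with Psma, Psmb, Psmc or Psmd followed by a digit, without the immunoproteasome genes Psmb8, Psmb9 and Psmb10, and with a mean of at least 10 counts over the 18 libraries. The rule took 35 of the 21859 rows of the count table and used only names and the mean count, not any difference between groups. It left out Psma8 (mean count 3.72) and Psmb11 (mean count 2.00), while the lowest members inside it were Psmc3ip (100.8) and Psmd9 (648.5). The highest was Psmd2 (5292). By name, 31 of the 35 code for subunits of the proteasome: 7 alpha subunits, 7 beta subunits, 6 ATPases and 11 non-ATPase subunits of the regulatory particle. Psmd5, Psmd9 and Psmd10 code for chaperones that assemble the regulatory particle and are not part of the finished enzyme. Psmc3ip codes for a meiotic recombination factor that shares only the start of its symbol with the ATPase Psmc3. All 35 passed the filter on low counts.

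Bulk RNA was sequenced from 4 groups of libraries: Young (RPE of young mice, n = 7), Old (RPE of aged mice, n = 4), Old control (aged mice treated with AAV2-tTA, n = 3) and Old OSK (aged mice treated with AAV2-tTA;TRE-OSK, n = 4). AAV2 is a vector derived from adeno-associated virus, tTA a transactivator that switches on promoters with its response element (TRE), and OSK the transcription factors Oct4 (gene Pou5f1), Sox2 and Klf4. Both vector groups therefore carried the transactivator, and Old carried no vector. Strain, genotype, ages, doses, times after treatment, the promoter that drives tTA, and whether a library is 1 animal or a pool are not given in the sources used here, so p-values measure the spread between libraries, part of which may be technical. Library totals ran from 18104828 to 32348136 counts. Pou5f1, Sox2 and Klf4 were each higher in all 4 Old OSK libraries than in all 3 Old control libraries. The 10 RPE markers examined were detected, at a summed 15463 to 65109 CPM over the libraries (CPM, the count of a gene scaled to a common library total), and the 10 rod photoreceptor markers were detected as well, at 451 to 20011 CPM.

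The proteasome degrades proteins marked with ubiquitin. Its core particle is a barrel of 2 outer alpha rings, which gate the entrance, and 2 inner beta rings, in which Psmb5, Psmb6 and Psmb7 supply the catalytic sites. The regulatory particle caps the barrel: the Psmc ATPases unfold substrates, and the Psmd subunits bind and remove ubiquitin and hold the cap together. Subunits are built into the particle in fixed proportions, and their genes are known to be induced together by the transcription factor Nfe2l1 when proteasome activity falls. Replacing the 3 catalytic subunits by Psmb8, Psmb9 and Psmb10 gives the immunoproteasome, which is induced by interferon. RPE cells digest shed photoreceptor tips throughout life and have a high protein turnover.

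Transcript level per length was compared first, since longer transcripts collect more reads. CPM, computed with TMM-scaled library totals, were divided by the length of the principal transcript of each gene in kb. The highest genes belonged to the core particle. Averaged over the groups, Psmb4, a structural beta subunit, stood at 149.4 CPM per kb and the catalytic Psmb6 at 142.3 CPM per kb. Psma7 followed at 119.9 CPM per kb, the ATPase Psmc3 at 106.8 CPM per kb and Psma6 at 98.3 CPM per kb. The median of the 6 ATPase genes was above that of the 7 alpha genes in Old (68.4 against 60.8 CPM per kb). In Young it was not (64.6 against 65.5 CPM per kb). Psmb4 and Psmb6 took the first and second place in every library, but their group values overlapped within 1 SD: in Old, Psmb4 stood at 139.6 ± 14.1 and Psmb6 at 136.8 ± 4.51 CPM per kb (SD, n = 4). The other catalytic subunits were lower, with Psmb7 at 82.0 and Psmb5 at 70.4 CPM per kb, at ranks 10 and 14 of the order, and their values overlapped within their SD in Old (76.9 ± 5.19 against 68.5 ± 5.11, n = 4). The lowest subunit was Psmd11, a scaffold subunit of the lid, which ranked last of the 31 in each of the 18 libraries (18.6 CPM per kb).

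Psma2 (27.2 CPM per kb) and the ATPase Psmc6 (30.2 CPM per kb) were the next lowest subunits. The assembly chaperones lay at or below the lowest subunit, with Psmd10 at 18.6, Psmd5 at 11.5 and Psmd9 at 10.2 CPM per kb. Psmc3ip stood at 3.18 CPM per kb. The highest subunit exceeded the lowest by 7.69 ± 0.89 times in Young and by 8.81 ± 0.78 times in Old OSK (SD, n = 7 and 4). Subunits that are built into the particle in equal numbers thus had transcripts at unequal levels. The order of the 31 subunits was similar in all libraries, with a lowest Spearman rho of 0.913 between any pair, given as a description because the libraries share gene lengths and base composition. Dividing by the length of all exons of a gene merged moved some genes in this order, Psmb1 from rank 16 to 27 and Psmd8 from rank 9 to 17.

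**Figure D1:**
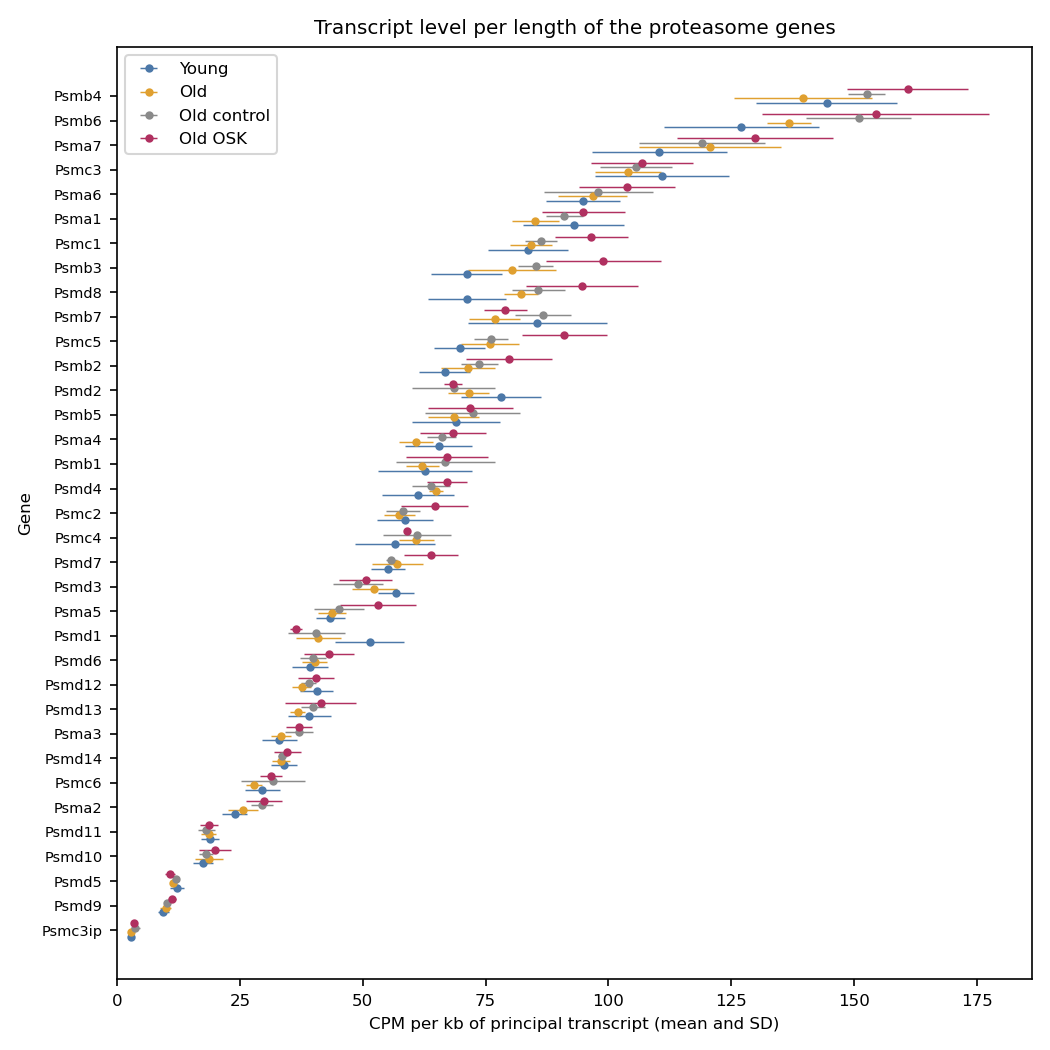
Transcript level of the 35 genes in CPM per kb of principal transcript (horizontal axis), ordered by their mean over the groups; points are group means and bars the SD over 7 Young, 4 Old, 3 Old control and 4 Old OSK libraries. Psmb4 and Psmb6 lie highest and Psmd11 is the lowest of the 31 subunits in every group.

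Promoter windows of 250 bases before to 50 bases after the gene start were found for 29 of the 35 genes in the RefSeq table (build GRCm38.p6), and none for Psmb1, Psmb2, Psmb7, Psmc3, Psmd3 and Psmd7. Shown are the windows of 2 catalytic subunits, Psmb5 (chr14:54617946-54618245, minus strand) and Psmb6 (chr11:70525107-70525406, plus strand), and of the 2 members with the lowest p-values below, Psmd1 (chr1:86064369-86064668, plus strand) and Psmc5 (chr11:106255935-106256234, plus strand). Capitals mark the letters TGACNNNGC, the core of the antioxidant response element through which Nfe2l1 and Nfe2l2 act.
Psmb5: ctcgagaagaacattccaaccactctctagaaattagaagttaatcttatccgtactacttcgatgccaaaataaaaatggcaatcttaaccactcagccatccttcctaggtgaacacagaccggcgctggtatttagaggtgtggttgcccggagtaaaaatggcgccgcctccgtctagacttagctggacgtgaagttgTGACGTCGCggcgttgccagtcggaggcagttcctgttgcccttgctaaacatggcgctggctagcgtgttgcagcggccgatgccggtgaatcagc
Psmb6: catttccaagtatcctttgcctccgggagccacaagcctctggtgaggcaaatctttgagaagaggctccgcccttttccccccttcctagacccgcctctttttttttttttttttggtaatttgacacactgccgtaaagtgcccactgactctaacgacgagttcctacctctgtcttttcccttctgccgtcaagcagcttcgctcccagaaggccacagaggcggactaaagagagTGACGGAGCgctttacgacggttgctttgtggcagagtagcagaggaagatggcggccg
Psmd1: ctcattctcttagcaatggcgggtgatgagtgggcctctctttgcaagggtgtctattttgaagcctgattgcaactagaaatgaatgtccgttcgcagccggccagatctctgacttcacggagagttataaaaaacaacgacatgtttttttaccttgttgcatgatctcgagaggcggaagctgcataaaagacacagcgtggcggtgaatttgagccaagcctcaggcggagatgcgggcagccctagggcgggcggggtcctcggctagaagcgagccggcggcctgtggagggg
Psmc5: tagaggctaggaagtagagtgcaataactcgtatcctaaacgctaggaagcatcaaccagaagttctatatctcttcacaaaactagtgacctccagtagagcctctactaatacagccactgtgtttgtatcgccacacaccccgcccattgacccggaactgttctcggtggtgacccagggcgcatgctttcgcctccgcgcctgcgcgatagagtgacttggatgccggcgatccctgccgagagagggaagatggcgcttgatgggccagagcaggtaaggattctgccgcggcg
Searched on both strands, the core stood in the windows of 5 of the 29 genes (17.2%), against 14.0% of all 27025 genes in the table. These were Psmb5 (first base at -47 from the gene start), Psmb6 (-9), Psmd9 (-31), Psmc6 (-227) and Psmd12 (-247), the last 2 on the opposite strand of the gene. The windows of Psmd1 and Psmc5 hold none. The gene starts here are those of RefSeq, and for some genes the GENCODE annotation places the start elsewhere. It starts Psmd1 at 86064387 and Psmd9 at 123169413, where the windows begin at 86064369 and 123227940. The CCAAT box, also searched on both strands, stood in 12 of the 29 (41.4%), against 41.1% of all genes, and no member window held both motifs, against 4.37% of all windows. Neither share is far from that of all genes, and a match describes letters only.

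In Old against Young, no gene of the constitutive proteasome passed the test. Of the 35 members 0 were called (edgeR quasi-likelihood test, Benjamini-Hochberg adjusted p under 0.05 over 15944 genes), against 9.56% of all genes tested (5.40% called higher and 4.16% lower in Old). At an unadjusted p under 0.05 there were 2, Psmd1 and Psmd8, against 29.0% of all genes. DESeq2 called 0, against 14.0% of all genes, with 2 at an unadjusted p under 0.05. Fitted log2 fold changes ran from -0.33 to 0.21, with 17 members higher and 18 lower in Old and a median of -0.01. The number higher ran from 13 to 24 over the alternatives. The median of all tested genes was -0.004, and that of the 5871 genes in the level range of the members (without Psmc3ip) was -0.10. The 95% interval of the fold lay within 1.5-fold in either direction for all 35 members, as it did for 44.3% of all genes and for 72.0% of the genes in that level range. A change by more than 1.5-fold therefore lay outside the interval of each member. In bulk RNA, fewer cells of a type and less RNA per cell cannot be told apart.

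The alpha genes, which form the gate, held 5 higher and 2 lower values in Old, with log2 fold changes from -0.13 to 0.13. Psma1 stood between 98.8 and 127.2 CPM in Young (median 104.2) and at 94.5, 107.5, 101.4 and 105.6 CPM in Old. Psma1 (-0.13, adjusted p = 0.341), Psma4 (-0.11, 0.432) and Psma7 (0.13, 0.458) had the lowest edgeR p-values among them. Of the beta genes 3 were higher and 4 lower. Psmb3, a structural beta subunit, stood at 54.5 ± 5.52 CPM in Young (lowest 47.0, median 55.9, highest 63.1) and at 57.9, 63.7, 54.7 and 70.2 CPM in the 4 Old libraries (log2 fold change 0.18, SE 0.093, adjusted p = 0.221). These groups overlapped, and Old replicate 4 alone lay clearly above the Young range. The catalytic Psmb7 stood between 77.2 and 126.6 CPM in Young (median 98.2) and at 83.4, 97.6, 88.2 and 87.5 CPM in Old, within the Young range (-0.15, adjusted p = 0.358). For Psmb3 and Psmb7 the directions thus differed within the same ring. Exons of Psmb7 overlap those of Nek6 on the opposite strand, so its reads cannot be told apart from those of Nek6 there. Psmb2, a structural subunit, gave 0.10 (adjusted p = 0.436). Psmb5, which carries the chymotrypsin-like activity, stood at 62.0 ± 8.09 CPM in Young and 61.6 ± 4.60 CPM in Old, and its 95% interval ran from -0.24 to 0.22.

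The 6 ATPase genes split evenly, 3 higher and 3 lower, between -0.09 and 0.12. Psmc5 (0.12, edgeR adjusted p = 0.301), Psmc4 (0.11, 0.494) and Psmc3 (-0.09, 0.555) had the lowest p-values of the ring. The 11 non-ATPase subunits held both ends of the range. Psmd1, the largest subunit of the cap and a scaffold of its base (chromosome 1, 86064387 to 86139151, GRCm38), stood at 160.0 ± 22.1 CPM in Young, with a lowest value of 129.5, a median of 157.8 and a highest of 203.6 CPM. In Old it stood at 129.1, 140.7, 132.4 and 107.3 CPM. Young replicate 2 was the only Young library inside the range of Old, whose highest library was below the other 6 Young libraries. The log2 fold change was -0.33 (SE 0.11, 95% interval -0.56 to -0.10, edgeR adjusted p = 0.062). Leaving out each library in turn, it passed the threshold once, when Young replicate 2 was dropped (-0.37, adjusted p = 0.0429). Dropping Old replicate 4 gave -0.25 (adjusted p = 0.258). With the letter M, which 6 library names carry without explanation, as a covariate it was -0.30 (adjusted p = 0.143).

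Psmd8, a lid subunit that joins late in assembly (chromosome 7, 29174188 to 29180701), lay at the other end. It stood at 109.7 ± 12.2 CPM in Young (lowest 95.4, median 104.7, highest 124.4) and at 120.0, 130.3, 124.8 and 131.2 CPM in Old. The log2 fold change was 0.21 (SE 0.090, edgeR adjusted p = 0.139). The lowest Old library lay within the Young range and the other 3 above it. Psmd2, the second large scaffold of the base and a docking site for ubiquitin shuttles, stood at 231.5 ± 24.1 CPM in Young and at 206.9, 230.3, 205.4 and 205.1 CPM in Old (-0.13, adjusted p = 0.354). Psmd12, a lid scaffold, stood between 69.6 and 88.5 CPM in Young (median 75.3) and at 70.1, 75.2, 67.0 and 73.9 CPM in Old (-0.11, adjusted p = 0.326). Psmd14, the deubiquitinase of the lid, stood at 52.4 ± 4.20 CPM in Young and 51.4 ± 2.72 CPM in Old (-0.03, 95% interval -0.18 to 0.12). Psmd4, a ubiquitin receptor, gave 0.08 (adjusted p = 0.548). The RPE markers ran from 39923 to 65109 CPM in Young and from 27058 to 47150 CPM in Old, and the rod markers from 451 to 3407 CPM and from 2389 to 8086 CPM. Their part in these values was not tested. A stretch of 9.67% of the exon bases of Psmd1 also belongs to exons of Gm21972 on the same strand, so its reads could be split between them.

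**Figure D2:**
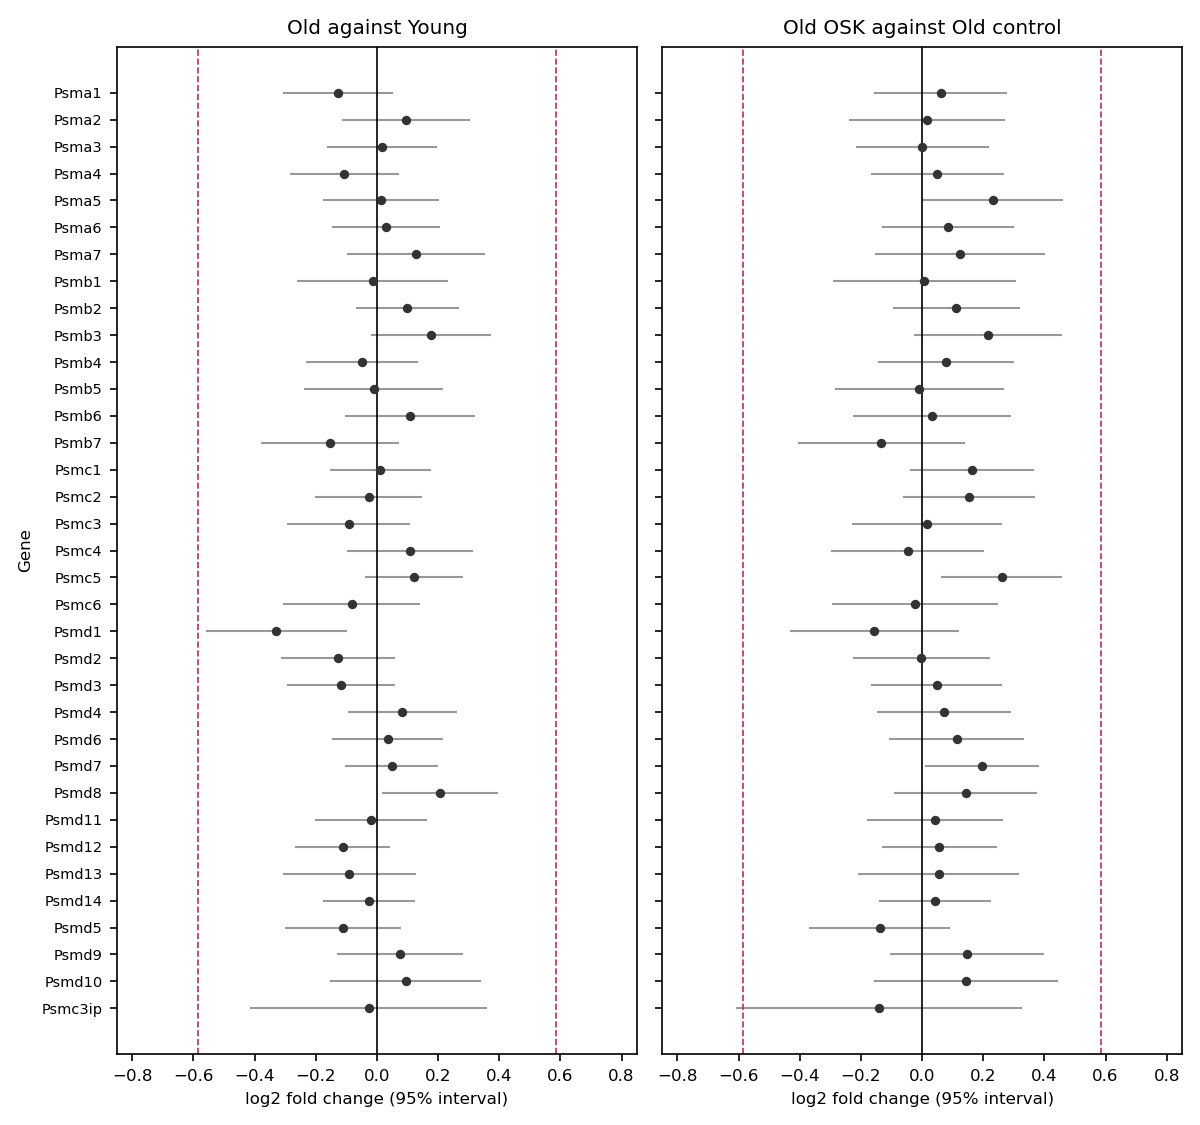
Fitted log2 fold change (horizontal axis) of each of the 35 genes with its 95% interval, for Old against Young (left) and Old OSK against Old control (right); dashed lines mark 1.5-fold in either direction. Intervals lie inside the dashed lines for all 35 genes on the left and for 34 of 35 on the right, the exception being Psmc3ip.

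In Old OSK against Old control, the comparison that asks what the OSK vector adds to the transactivator alone, again 0 of the 35 members were called in edgeR, against 0.728% of all genes (0.408% called higher and 0.320% lower in Old OSK). At an unadjusted p under 0.05 there were 2, Psmc5 and Psmd7, against 26.3% of all genes. DESeq2 called 0, against 11.2% of all genes, with 3 at an unadjusted p under 0.05. Of the 35, 27 were fitted higher in Old OSK and 8 lower, with a median log2 fold change of 0.05 (all genes -0.03) and a range from -0.16 to 0.26. This lean reversed when Old OSK replicate 1 was left out, with 12 members higher, 23 lower and a median of -0.04. Without Old control replicate 2, 20 were higher and 15 lower, and without each other library 24 to 29 were higher. The 95% interval lay within 1.5-fold for 34 of the 35 members, for 34.2% of all genes and for 58.5% of the genes in the level range of the members. The RPE markers ran from 15463 to 29799 CPM in Old OSK and from 20352 to 62177 CPM in Old control, the rod markers from 3139 to 16820 CPM and from 1873 to 20011 CPM, and their part in these values was not tested.

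Psmc5, an ATPase of the base (chromosome 11, 106256154 to 106263120), had the lowest p-value. It stood at 136.3, 118.6, 111.9 and 112.5 CPM in Old OSK and at 100.1, 95.5 and 104.6 CPM in Old control, so the groups did not overlap. Its log2 fold change was 0.26 (SE 0.093, 95% interval 0.06 to 0.46, edgeR adjusted p = 0.11). Without Old OSK replicate 1, the highest of its libraries, it was 0.16 (adjusted p = 0.314). Its level was 91.7 ± 6.88 CPM in Young and 99.8 ± 7.77 CPM in Old. Psmc1, the next ATPase, stood at 158.5, 168.0, 142.3 and 145.6 CPM in Old OSK and at 139.9, 131.2 and 140.6 CPM in Old control (0.16, SE 0.096, adjusted p = 0.298). Its groups did not overlap, by a gap of less than 1 SD. Psmc2 was also fitted higher (0.15, adjusted p = 0.361), and Psmc4 (-0.05) and Psmc6 (-0.02) lower. Psmd7, the partner of the deubiquitinase Psmd14, stood at 113.0, 92.9, 96.7 and 101.4 CPM in Old OSK and at 90.1, 86.7 and 88.0 CPM in Old control (0.19, SE 0.088, adjusted p = 0.173), without overlap but with a gap smaller than the SD of Old OSK (8.73).

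All 7 alpha genes were fitted higher in Old OSK, between 0.001 and 0.23, and none was called. Psma5 was the furthest, at 78.1, 68.5, 58.8 and 57.6 CPM in Old OSK and 50.6, 62.9 and 54.5 CPM in Old control (0.23, SE 0.109, adjusted p = 0.191), with overlapping groups. Psma7 gave 0.13 (adjusted p = 0.603) and Psma6 0.08 (0.668), the latter turning to -0.02 without Old control replicate 2. Among the beta genes, Psmb3 stood at 84.4, 82.7, 68.2 and 67.9 CPM against 62.9, 64.6 and 68.3 CPM (0.22, SE 0.114, adjusted p = 0.243), Psmb2 gave 0.11 (0.513) and Psmb7 -0.13 (0.564). The catalytic Psmb5 (-0.01, 95% interval -0.29 to 0.27) and Psmb6 (0.03, -0.23 to 0.29) had intervals centred near 0. Psmd8 gave 0.14 (adjusted p = 0.45), with 171.1 CPM in Old OSK replicate 1 and 131.2 to 142.1 CPM in the other 3, and 0.02 without replicate 1. The chaperone Psmd5 gave -0.14 (adjusted p = 0.459).

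Psmd1 was fitted lower in Old OSK (-0.16, edgeR adjusted p = 0.489). Its levels of 111.4, 118.5, 109.5 and 113.6 CPM lay close together, while Old control ran over 139.4, 105.6 and 133.7 CPM, so that the groups overlapped. Psmc5, Psmd7, Psmc1 and Psmd9 were the 4 members whose groups did not overlap, 11.4% of the 35, against 12.4% of all genes. With replicate number as a block, 0 members were called and none was under an unadjusted p of 0.05, and 30 were higher and 5 lower. The letter M is in the names of Old control replicates 2 and 3 and of Old OSK replicate 4. With M as a covariate 0 members were called in Old OSK against Old control. Old control shared its 3 libraries with the comparison that follows.

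**Figure D3:**
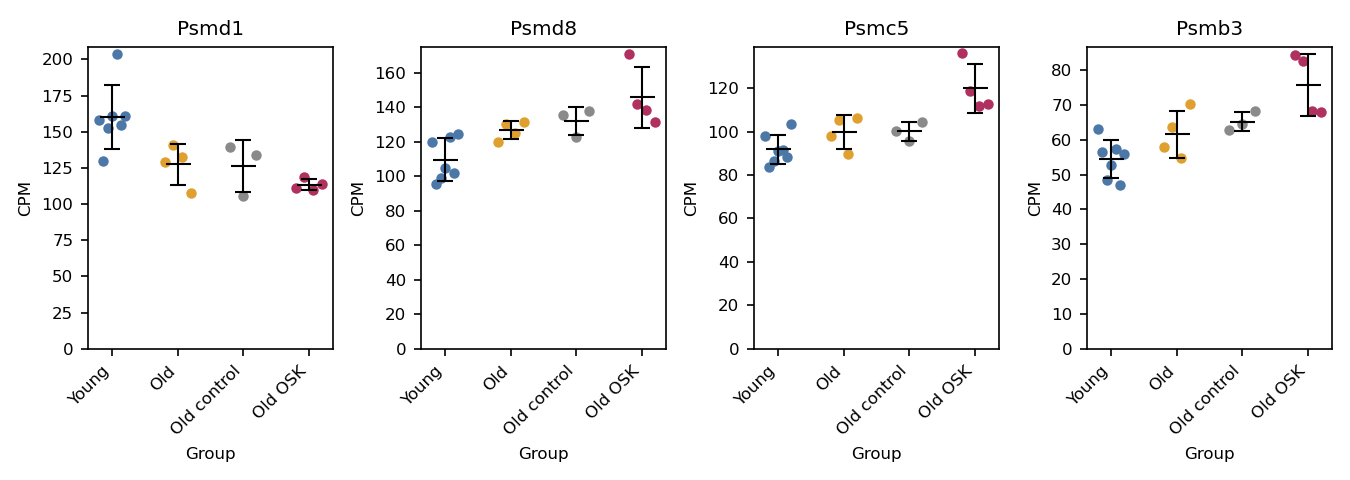
CPM (vertical axis, from 0) of the 4 members Psmd1, Psmd8, Psmc5 and Psmb3 in each library of the 4 groups; points are libraries, long bars the mean and error bars the SD. The mean of Psmd1 is 160.0 CPM in Young and 113.3 CPM in Old OSK, and that of Psmd8 109.7 and 145.7 CPM. Young and Old OSK were not a tested comparison. None of the 4 genes passed the main test in the comparisons that were tested.

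Old control against Old sets the transactivator vector alone against no vector. Old control replicates 2 and 3 carry the letter M and no Old library does, so vector and M are partly confounded here. With M as a covariate 0 members were called. In edgeR 0 of the 35 members were called, against 0% of all genes. None had an unadjusted p under 0.05, against 3.74% of all genes, and DESeq2 called 0. Of the members 26 were fitted higher in Old control and 9 lower, with a median of 0.05 and an all-gene median of 0.04. Of all 15944 genes tested, 9150 were fitted higher. Without a low-count filter 20 members were higher and 15 lower. Median-ratio scaling gave 22 higher and 13 lower, with an all-gene median of 0.02. The 7 beta genes and the 6 ATPase genes were all fitted higher with TMM, with medians of 0.11 and 0.02. The lowest ATPase value was 0.003, so these signs depend on the scaling. Psma2 (0.21, adjusted p = 0.9) stood at 85.9 ± 6.48 CPM in the 3 Old control libraries and at 74.4 ± 8.94 CPM in the 4 of Old. Psmc3ip, the gene that is not a subunit, gave the largest value (0.40, SE 0.22, adjusted p = 0.9) from 3.62 ± 0.39 to 4.78 ± 1.13 CPM. The lowest were Psmd3, a lid scaffold (-0.10, adjusted p = 0.921), and Psmd2 (-0.06, adjusted p = 0.966), which turned to 0.04 without Old control replicate 2. Old shared its 4 libraries with the first comparison.

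Summed over the 35 members, the level was 3134 ± 299 CPM in Young (lowest 2765, median 3106, highest 3559), 3088 ± 145 CPM in Old, 3191 ± 139 CPM in Old control and 3325 ± 272 CPM in Old OSK. These ranges overlapped. The means of Old and Old OSK were the furthest apart, by less than the SD of Young or Old OSK and more than that of Old or Old control. The picture depended on the scale. As a share of all counts of a library, before TMM scaling, the members took 0.297% in Young (0.278% to 0.319%), 0.314% in Old (0.301% to 0.332%), 0.323% in Old control (0.310% to 0.346%) and 0.354% in Old OSK (0.339% to 0.367%). On that scale all 4 Old OSK libraries lay above all 7 Young libraries. After TMM scaling these 2 groups overlapped, and Young and Old OSK were not a tested comparison.

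The summed subunit CPM was also split by the parts of the particle. The alpha genes took 19.4% to 21.0% in Young and 20.4% to 21.5% in Old OSK, the beta genes 21.6 ± 0.665% and 22.7 ± 0.329%, and the ATPases 21.7 ± 0.308% and 22.4 ± 0.481%. The non-ATPase subunits took 36.6 ± 0.985% in Young, 35.6 ± 1.14% in Old, 34.1 ± 1.00% in Old control and 33.8 ± 0.616% in Old OSK. For these, the 4 Old OSK libraries (33.1% to 34.4%) lay below all 7 Young libraries (34.9% to 38.1%), a description with no test. The large scaffolds Psmd1 and Psmd2 carried part of it, with Psmd1 going from 160.0 to 113.3 CPM and Psmd2 from 231.5 to 202.4 CPM between these groups. Psmd11 stayed between 51.8 and 53.8 CPM in all 4 group means.

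Longer member transcripts tended to have lower fold changes. Across the 35 members, Spearman's rho between transcript length and log2 fold change was -0.394 for Old against Young, -0.327 for Old OSK against Old control and -0.176 for Old control against Old. The same relation was present across 5813 genes in the level range of the members (-0.248, -0.0833 and -0.15) and across all 15706 genes with a length (-0.165, -0.0835 and -0.036). Psmd1, at 3.11 kb the longest subunit transcript, and Psmb3, at 0.766 kb the shortest, lay at opposite sides of both main comparisons. These are correlations across genes that share libraries, and the part of transcript length in the values above was not tested.

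Some libraries stood higher or lower for most members at once. Within groups the median SD of log2 CPM was 0.137 for the members, from 0.100 (Psmd14) to 0.259 (Psmc3ip), against 0.183 for genes in the same level range. The highest library exceeded the lowest by a median of 1.49 times for members and 1.76 times for those genes. The ratio was 1.25 for Psmd14, 1.93 for Psmd1 and 2.26 for Psmc3ip. Old OSK replicate 1 was the highest library for 21 of the 35 members and lay above the 18-library mean of the gene for 32 of them, by a median of 0.24 on the log2 scale. Young replicate 2 lay below it for 33 members (median -0.18) and was the lowest library for 14, and Old replicate 1 lay below it for all 35 (median -0.10). Young replicate 5 lay above it for 27 (median 0.16). Psmd1 departed from this: it was the member furthest below its mean in each of the 4 Old OSK libraries, including replicate 1 (-0.27), and furthest above in Young replicates 1, 3, 4, 5 and 6.

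**Figure D4:**
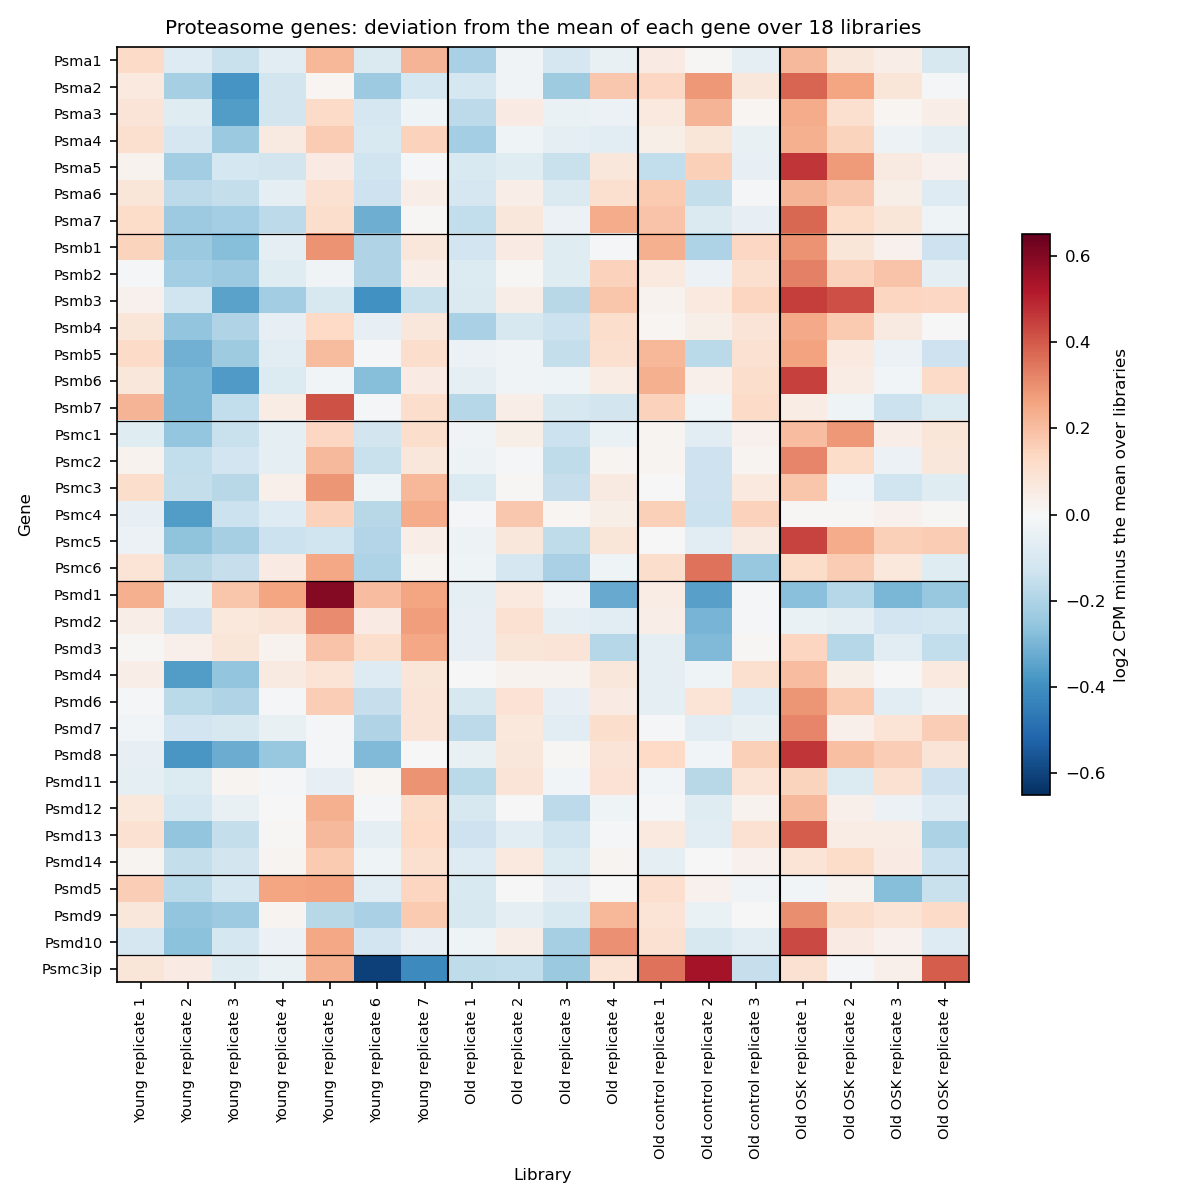
Deviation of log2 CPM from the mean of each gene over the 18 libraries (colour, red above and blue below), with the 35 genes in rows by role (alpha, beta, ATPase, non-ATPase subunits, chaperones, Psmc3ip) and the libraries in columns by group. Old OSK replicate 1 is red for 32 genes and Young replicate 2 blue for 33, and Psmd1 is red in 6 of the 7 Young libraries and blue in all 4 of Old OSK.

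The catalytic subunits have interferon-induced alternatives, and the balance of each pair was followed because the constitutive partner is a member here. The level per length of the immunoproteasome gene was taken as a percentage of the pair. Psmb8, the alternative to Psmb5, made up 5.44 ± 3.18% in Young (lowest 1.71%, median 4.71%, highest 11.3%), and 7.34%, 17.9%, 20.4% and 28.8% in the 4 Old libraries. It made up 6.85%, 18.7% and 12.1% in Old control and 35.1%, 26.3%, 29.2% and 17.3% in Old OSK. Old replicate 1 and Old control replicate 1 lay within the Young range and all Old OSK libraries above it. Psmb9, the alternative to Psmb6, made up 1.70 ± 0.736% in Young, 4.71 ± 2.35% in Old, 3.10 ± 1.15% in Old control and 7.66 ± 2.08% in Old OSK. Psmb10, the alternative to Psmb7, made up 12.8 ± 2.87%, 20.1 ± 4.87%, 18.5 ± 2.78% and 25.6 ± 2.78% in the same order. In each pair the constitutive gene gave most of the transcript in every library. Exons of Psmb5, Psmb7, Psmb8 and Psmb9 overlap those of other genes, and the part of this in the percentages was not tested.

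Old libraries had higher log2 ratios than Young libraries in each pair, by 2.05 for Psmb8 to Psmb5 (two-sided exact permutation test over 330 splits, p = 0.00909), 1.46 for Psmb9 to Psmb6 (exact p = 0.0152) and 0.77 for Psmb10 to Psmb7 (exact p = 0.0152). Adjusted over the 9 tests of this kind, each gave 0.0455. Leaving out 1 library at a time, the adjusted value stayed under 0.05 in 3 of 11 cases for each pair (without Young replicate 2, Young replicate 3 or Old replicate 1) and reached 0.105 without Old replicate 4. These ratios were chosen after the data had been seen, which the adjustment does not cover. They use the same counts as the calls of Psmb8, Psmb9 and Psmb10 below, so the ratios and the calls are not independent. With 1 library left out, the highest unadjusted exact p was 0.025 for Psmb8 to Psmb5, 0.0583 for Psmb9 to Psmb6 and 0.0333 for Psmb10 to Psmb7. The exact tests took no account of the letter M, which Young replicates 5 to 7 carry and no Old library carries. For Psmb8 to Psmb5 these replicates had the lowest ratios of the Young libraries. For Psmb9 to Psmb6, Young replicate 1 lay below Young replicate 6, and for Psmb10 to Psmb7, Young replicate 4 was the lowest. The part of M in these ratios was not tested. Between Old OSK and Old control the ratios differed by 1.43, 1.41 and 0.61, with exact p = 0.0857, 0.0571 and 0.0571 (adjusted 0.129, 0.103 and 0.103). With 4 against 3 libraries the smallest p that design can give is 0.0286. Between Old control and Old they differed by -0.63, -0.53 and -0.13 (exact p = 0.371, 0.429 and 0.686). The constitutive partners Psmb5, Psmb6 and Psmb7 were called in none of the 3 comparisons.

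**Figure D5:**
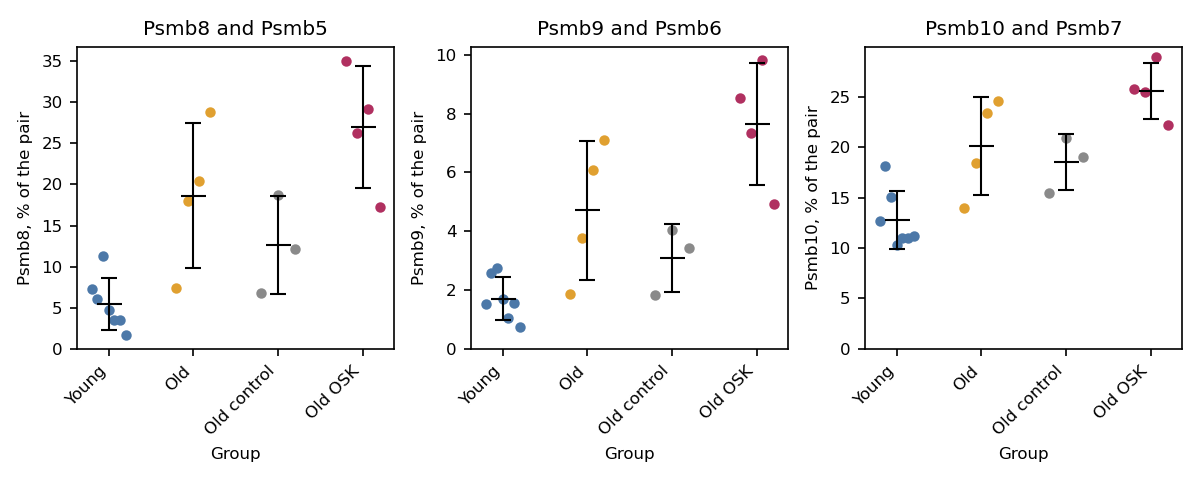
Immunoproteasome gene as a percentage of its catalytic pair, by level per length (vertical axis, from 0), in each library of the 4 groups, with mean and SD; left Psmb8 with Psmb5, middle Psmb9 with Psmb6, right Psmb10 with Psmb7. The means are 5.44%, 18.6%, 12.6% and 26.9% for the first pair in Young, Old, Old control and Old OSK, and single Old and Old control libraries overlap with Young.

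Of the 40 other proteasome and ubiquitin genes tested, those of the immunoproteasome and its activator stood out from the members. In Old against Young all 5 of them, Psmb8, Psmb9, Psmb10, Psme1 and Psme2, were called higher in edgeR, against 9.56% of all genes in either direction, with a median log2 fold change of 0.71. Psmb8 rose from 6.32 ± 3.51 CPM in Young to 8.76, 24.4, 26.1 and 49.4 CPM in Old (2.10, SE 0.45, adjusted p = 0.0112). Psmb9 rose from 2.87 ± 0.99 to 9.32 ± 5.04 CPM (1.70, SE 0.35, adjusted p = 0.00873) and Psmb10 from 16.1 ± 2.61 to 25.8 ± 7.61 CPM (0.68, SE 0.17, adjusted p = 0.0267). Psme1 (0.41, SE 0.13, adjusted p = 0.0474) and Psme2 (0.71, SE 0.21, adjusted p = 0.043) lay just past the threshold. All 5 were called in 5 of the 19 alternatives. None was called without Old replicate 4, with a replicate block, or in the libraries of that block without it. The block used Young replicates 1 to 4 and Old replicates 1 to 4. It left out Young replicates 5 to 7, whose names carry the letter M, which no Old library carries. Without Old replicate 4, which had the highest level of Psmb8, Psmb9 and Psmb10, their adjusted p was 0.0717, 0.0566 and 0.139. With the replicate block it was 0.297, 0.251 and 0.378. These were the 3 alternatives that ended the calls of Psmb8 and Psmb9, while the call of Psme1 was lost in 14 of 19 (adjusted p up to 0.249) and that of Psme2 in 12 (up to 0.415). The call of Psmb10 was also lost with the letter M as a covariate (adjusted p = 0.0757) and without Young replicate 6, Old replicate 2 or Old replicate 3 (0.0556 to 0.0694).

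The 10 markers of macrophages and microglia, cells that carry immunoproteasomes, summed to 484 to 681 CPM in Young and 685 to 1159 CPM in Old, with none of the 10 at 0 in all libraries, and their part in this result was not tested. Between Old OSK and Old control 0 of the 5 were called in edgeR, while all 5 were fitted higher with an unadjusted p under 0.05 and a median of 0.83, where 0.728% and 26.3% of all genes met these thresholds. The lowest adjusted p was 0.0588, for Psme1 of the activator PA28, with 130.7, 102.9, 109.8 and 82.1 CPM against 52.9, 71.5 and 77.7 CPM. DESeq2 called Psme1 (adjusted p = 0.00598), Psmb9 (0.0222) and Psme2 (0.0324), where it called 11.2% of all genes with an adjusted p. The number called ran from 0 to 3 over the 15 alternatives, with 0 in 10 of them. The macrophage markers ran from 739 to 922 CPM in Old OSK and from 834 to 1089 CPM in Old control, and their part in these values was not tested. Between Old control and Old 0 of the 5 were called, and all 5 were fitted lower (median -0.40, lowest adjusted p 0.9).

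In the other lists no gene was called in edgeR in any of the 3 comparisons. Of the whole list of 40, 12 had an unadjusted p under 0.05 in Old against Young, 11 in Old OSK against Old control and 1 in Old control against Old. These are 30%, 27.5% and 2.50% of the list, near the 29.0%, 26.3% and 3.74% of all genes, and 5 each of the first 2 counts are the genes of the immunoproteasome and PA28. Single alternatives called some of the genes below. In Old against Young these were Ubqln2 without Young replicate 2 (adjusted p = 0.0467), and Pomp (0.0477) and Rps27a (0.0449) without Old replicate 1. In Old OSK against Old control these were Nfe2l1 (0.0439), Uba6 (0.0229) and Rps27a (0.0494) without Old control replicate 2, Ubqln2 (0.0285) and Nfe2l2 (0.0209) without Old OSK replicate 4, and Nfe2l2 with DESeq2 (0.0304). Among the regulators, Nfe2l1, the factor that induces proteasome genes, stood at 573.7 ± 64.1 CPM in Young (lowest 518.0, median 537.7, highest 679.7) and at 502.1, 489.5, 457.9 and 334.5 CPM in Old (-0.36, SE 0.14, adjusted p = 0.106). Its groups did not overlap, which also held for 9.30% of all genes tested. In Old OSK Nfe2l1 gave -0.26 against Old control (adjusted p = 0.366). Nfe2l2, the antioxidant regulator, gave -0.08 in Old (adjusted p = 0.7). It stood at 83.2, 105.2, 110.7 and 67.7 CPM in Old OSK against 72.0, 50.03 and 70.6 CPM in Old control (0.51, SE 0.15, adjusted p = 0.0823, range 0.0209 to 0.292 over the alternatives). Ngly1, which helps activate Nfe2l1, gave -0.23 in Old (adjusted p = 0.0954), and Vcp, the segregase that frees ubiquitinated substrates, -0.25 (adjusted p = 0.162).

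Pomp, the maturation factor of the core particle, gave 0.30 in Old (adjusted p = 0.114) and 0.34 in Old OSK (adjusted p = 0.17). Of the other 4 core chaperones tested, Psmg4 was the furthest in Old (0.42, adjusted p = 0.197). Sem1, a small lid subunit whose symbol the rule does not take, gave 0.29 in Old (adjusted p = 0.176) and 0.38 in Old OSK (adjusted p = 0.171). The other cap factors with the lowest p-values were Ube3c (-0.17 in Old, adjusted p = 0.169), Akirin2 (-0.25 in Old, 0.329) and Usp14 (0.16 in Old OSK, 0.274). Of the other activators and inhibitors Psme4 gave -0.17 in Old (adjusted p = 0.209) and Psmf1 -0.15 in Old OSK (adjusted p = 0.338). Among the shuttle factors Ubqln2 gave -0.28 in Old (adjusted p = 0.0731) and -0.37 in Old OSK (adjusted p = 0.0898). Of the ubiquitin genes Rps27a gave 0.53 in Old (adjusted p = 0.0924) and 0.60 in Old OSK (adjusted p = 0.147), and Uba6, an activating enzyme, 0.26 (0.279) and 0.49 (0.13).

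The members lie on 15 chromosomes, with at most 7 on one, so no single region holds them. Exons of 9 of the 35 overlap those of another gene. The largest overlaps are of Psmb7 with Nek6 on the opposite strand (34.9% of the exon bases) and of Psmc3ip with Mlx on the opposite strand (29.8%). Psmb9 overlaps Tap1 on the opposite strand over 15.7%, and Psmb8 overlaps Gm20496 on the opposite strand over 11.4%. The strand setting of the counting is not given in the sources used here, so reads of such stretches cannot be told apart between the partners.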

How the data were processed

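Poly(A) RNA of the 18 libraries was isolated with TRIzol and prepared with the SMART-Seq v4 and Nextera XT kits, per the labels' protocols. The values are whole-number counts per gene in 1 table that the authors deposited for the series. STAR 2.7.1a, featureCounts 1.6.2 and the builds GRCm38 and GRCh38 are named in the submitters' processing notes, without roles. The annotation and strand setting are not given in the sources used here. From the counts, filterByExpr of edgeR 4.0.16 (R 4.3.3; minimum count 10, minimum total 15) kept 15944 genes, scaled by TMM and fitted with 4 group means by glmQLFit and glmQLFTest, with Benjamini-Hochberg adjustment over all of them. A gene was called at an adjusted p under 0.05. CPM are TMM-scaled and log2 CPM used a prior count of 2. The script was tested on simulated data. The lowest member, Psmc3ip, had 51 to 170 counts in a library. Counts are amplified reads without molecular identifiers, so counting precision is an upper limit.

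Lengths and coordinates came from the GENCODE annotation of GRCm38 (principal transcript by its APPRIS tag), and promoters from RefSeq (GRCm38.p6). Replicates of a group differed by a chi-square of at least 19.8 per gene, so none was merged. Libraries of Old OSK and Old control with the same number had deviations that correlated at 0.103, 0.421 and 0.339. A pairing by number rests on this check only. Replicate number was used as a block in an alternative, on the numbers that both groups share. The main fit and the exact permutation tests were unpaired. Members and lists were chosen with earlier results of these data known. The genes named with statistics were drawn from the 3 lowest p in each role class (chaperones with the non-ATPase subunits) for the 2 main comparisons, the 2 lowest p in each direction for Old control against Old, the 3 lowest p in each other list, and Nfe2l1, Nfe2l2, Psmb8, Psmb9, Psmb10 and Pomp. Psme1 and Psme2 were added as called genes. A gene that the rule takes from the other lists is not reported here. Psmd2, Psmd14, Psmd4, Psmb5, Psmb6, Psmd11, Psmc4 and Psmc6, and Psmd1 in Old OSK, were added for their roles or after their values were seen. Alternatives were median-ratio scaling, testing without a low-count filter, keeping genes with a mean of at least 50 counts, DESeq2 1.42.0, the compared groups alone, a replicate block, the letter M as a covariate and leaving out each library.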

Additional observations from a re-analysis of the deposited data

Results flagged for a closer look

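The 35 members and their summed CPM were tested in the 3 groups of 4 or more libraries for a library far from the others, and 7 of these 108 sets had one, where chance gives about 1 in 20, or 5.4. Psmd2 stood at 230.3 CPM in Old replicate 2 and at 205.1 to 206.9 CPM in the other 3 Old libraries. Psmd11 stood at 64.9 CPM in Young replicate 7, against 49.9 to 53.7 CPM in the other 6. Psmd1 stood at 203.6 CPM in Young replicate 5, against 129.5 to 160.9 CPM, and without that library its log2 fold change in Old was -0.26 (edgeR adjusted p = 0.121). Psmd10 stood at 31.1 CPM in the same library, against 21.8 to 25.5 CPM. Psmd9 stood at 30.1 CPM in Old replicate 4, against 24.1 to 24.8 CPM, and at 32.05 CPM in Old OSK replicate 1, against 27.6 to 28.3 CPM. Psmc4 stood at 85.8 CPM in Old OSK replicate 3, where the other 3 lay between 84.80 and 84.85 CPM, so its gap of about 1 CPM is small beside the SD of every other group.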

How the results depend on the processing

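The count of members called was 0 under every alternative in the 3 comparisons, except 1 (Psmd1) in Old against Young without Young replicate 2, so leaving out a library gave 0 to 1. The count over all genes moved far more. In Old against Young it was 1524, and 2450 with DESeq2, 600 with M as a covariate, 0 with a replicate block and 191 in the same libraries without it, and 393 to 2140 without 1 library, lowest without Old replicate 4. It moved by over 1.5 times without each of Young replicates 1, 4, 5, 6 and 7 and Old replicates 2, 3 and 4. In Old OSK against Old control it was 116, and 1647 with DESeq2, 2 in the compared groups alone, 461 with the replicate block (381 higher, 80 lower) and 990 in the same libraries without it, 58 with M as a covariate, and 13 to 2881 without 1 library. The extremes were without Old control replicate 1 and without Old control replicate 2, it was 1738 without Old OSK replicate 4, and each of the 7 libraries left out moved it by over 1.5 times. Median-ratio scaling gave 64 higher and 29 lower there, against 65 and 51 with TMM. The cause of these moves was not tested. In Old against Young, equally numbered libraries did not deviate together (r from -0.193 to 0.144), and the block changed no call of a member in any comparison but ended those of the 5 immunoproteasome and PA28 genes in Old against Young, as its libraries did without it. Sign changes were met by Psmc3 in Old with the replicate block (0.0046) and in its libraries without it (0.00071). Leaving out 1 library, the log2 fold change ran in Old from -0.018 (without Young replicate 2) to 0.046 for Psme3. In Old OSK it ran from -0.023 (without Old control replicate 2) to 0.17 for Psma6, from -0.14 (the same library, and -0.11 without Old OSK replicate 1) to 0.22 for Psmg4, and from -0.23 to 0.044 (without Old control replicate 1) for Rad23b. In Old control it ran from -0.13 to 0.038 (without its replicate 2) for Psmd2. The summed level of each group moved by less than its own SD under other scalings, but not always in the same direction. With plain library totals it fell from 3134 to 2969 CPM in Young and rose from 3325 to 3540 CPM in Old OSK. With 3 to 7 libraries a group, the median SE of a member was 0.089 on the log2 scale in Old against Young, which sets how small a change could be called.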
